A study of Mus musculus with 4 samples.

Results

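Axon-glia signalling and the contact sites around the node of Ranvier were followed through 10 genes, picked by symbol for what their products do. All 10 were found, each on 1 row of the 23282 gene rows counted. They were Nrg1, Erbb2, Erbb3 and Adam17 of neuregulin signalling, Adam22 and Adam23 as partners of LGI4, and Cntn1, Cntnap1, Nfasc and Gldn of the node and paranode. Reads were plentiful enough for a comparison (at least 50 in the higher library) for 8 of them. Nrg1 and Erbb3 stayed under 50 reads in every library.

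The material was dorsal root ganglia, which hold sensory neurons and their glia, taken from C57BL/6 mouse embryos at embryonic day 13 and grown as explants on Matrigel. All cultures were moved from growth to myelination medium at day in vitro (DIV) 8. Stimulated (ES) cultures received 20 Hz at 50 mV/mm for 1 h on DIV 10, control cultures received none, and RNA was taken at 11 or 19 DIV. Each group was 1 library made from 3 pooled explants, so no difference given here has a replicate check. The libraries are called C11 and ES11 (control and stimulated, 11 DIV) and C19 and ES19 (19 DIV), and values follow that order unless another is given. Explants keep neurons, glia and connective tissue cells together, without separate labels for them.

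Schwann cells read the amount of neuregulin 1 on the axon through a receptor pair, ErbB2 and ErbB3, in which ErbB3 binds the ligand and ErbB2 supplies the kinase activity. This signal governs the survival of Schwann cell precursors and later the thickness of myelin, and proteases on the axon trim the ligand. LGI4, secreted by Schwann cells, acts through ADAM22 and its relatives on axons and is needed for peripheral myelination. At the node, gliomedin from Schwann cell microvilli gathers neurofascin on the axon and with it the sodium channels. At the paranode beside it, contactin-1 and Caspr (the product of Cntnap1) on the axon meet the glial form of neurofascin.

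The DNA just upstream of the start of 2 genes is shown because Gldn, made by glia, and Cntn1, made by neurons, were the members with the highest mean levels and stood on opposite sides of control in ES19. Each run is the 250 bases before the start on the plus strand, from RefSeq's table for GRCm38.p6, at chr9:54286236-54286485 for Gldn and chr15:92050915-92051164 for Cntn1. Capitals mark matches, on either strand, to GCGNGGGCG (the EGR motif, for the family of Egr2) or ACAANG (a core of the SOX motif), where N is any base.
Gldn: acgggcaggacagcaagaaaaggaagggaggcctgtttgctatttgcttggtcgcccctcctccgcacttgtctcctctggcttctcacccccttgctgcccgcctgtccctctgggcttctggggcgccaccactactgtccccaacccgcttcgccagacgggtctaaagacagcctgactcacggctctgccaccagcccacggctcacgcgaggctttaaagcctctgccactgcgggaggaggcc
Cntn1: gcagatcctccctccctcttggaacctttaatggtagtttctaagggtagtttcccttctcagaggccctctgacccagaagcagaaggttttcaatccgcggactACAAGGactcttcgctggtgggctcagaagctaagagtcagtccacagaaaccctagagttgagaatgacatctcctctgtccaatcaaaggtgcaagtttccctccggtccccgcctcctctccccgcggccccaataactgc
The Gldn window held neither motif, and the Cntn1 window held 1 match to the SOX letters. Over all 32851 windows of that length in the table, 4.70% held the EGR letters and 36.3% the SOX letters. GC content was 63.6% in the Gldn window and 53.6% in that of Cntn1, against a median of 52.4% over all windows. The table had windows for 7 of the 10 genes (10 windows, since Cntn1 and Nfasc have several starts), and 1 of these 10 held the EGR letters and 3 the SOX letters.

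Library totals ranged from 5782834 to 7830950 reads. Levels are in CPM, reads scaled to a common library size with TMM factors, in which 1 CPM stood for 5.79 to 7.99 reads and 3 reads, taken as the limit for a count of 0, for 0.376 to 0.518 CPM. Counting error alone was far below the differences between libraries. Among genes of 500 to 3000 reads, squared log differences between 2 libraries were 201 to 242 times what counting alone gives, a number called the spread factor here. Ratios are therefore given with a spread-adjusted 95% interval, computed on counts divided by that factor, and 416 reads then weigh like 1.88 counts. A gene was past the size rule with at least 2-fold, a plain counting interval that leaves out equality and 50 reads in the higher library. It was past the spread-adjusted rule if a 99% interval on the divided counts left out equality as well. The factor takes in every difference between the 2 libraries, biological ones included, so it is no replicate error. All 16 sensory neuron markers and 11 of 13 Schwann and satellite glia markers reached 50 reads in some library, while 6 of 6 oligodendrocyte and 6 of 6 muscle markers did not.

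Gldn had the highest mean level of the 10 genes, 282 CPM over the 4 libraries. Cntn1 followed with 137 CPM and Adam17 with 131, then Adam23 with 64.1, Nfasc with 59.6 and Adam22 with 40.3 CPM. Cntnap1 (11.4), Erbb2 (10.2), Nrg1 (0.907) and Erbb3 (0.0626 CPM) were scarce. Reads of Gldn over the 4 libraries were 2.31 times those of Cntn1 (spread-adjusted 1.24 to 4.47). Every other neighbouring pair in this order had an interval that included equality. The spread factor was measured for the same gene between 2 libraries, so an interval between genes is a description only. The place of Gldn rests on 19 DIV: its reads per read of Cntn1 were 0.629 in C11, 0.993 in ES11, 2.04 in C19 and 11.8 in ES19. In C11 Gldn (71.8 CPM) lay below Adam17 (123 CPM) and Cntn1 (114 CPM). The kit reads tags near the 3' ends of transcripts, so CPM were not divided by length, but tag yield can still differ between genes. In mixed explants, fewer cells of a type and less RNA per cell cannot be told apart.

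**Figure D1:**
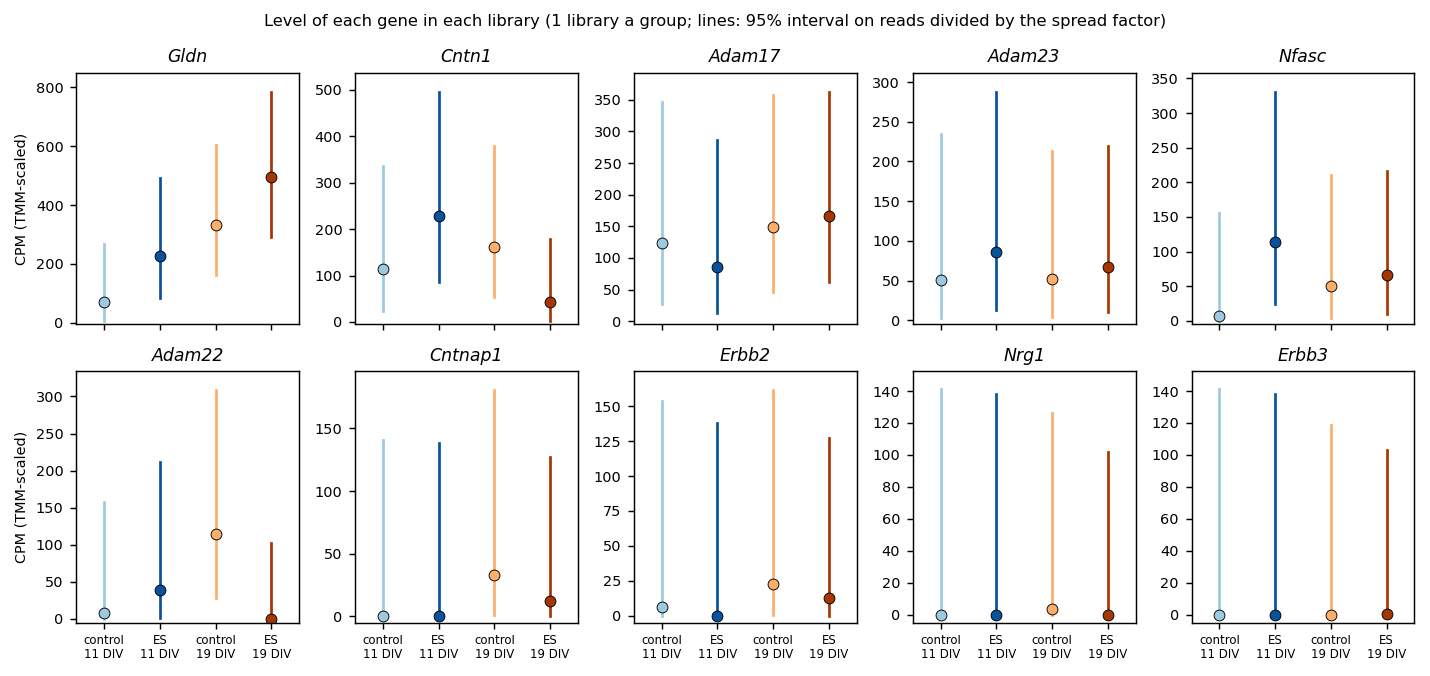
TMM-scaled CPM (vertical axes, each with its own range) of the 10 genes in the 4 libraries, 1 library a group, ordered by mean level. Points are the measured levels and lines the 95% interval on reads divided by 222, the mean spread factor; Gldn lay lowest in C11 (71.8 CPM) and highest in ES19 (495 CPM), Cntn1 lowest in ES19 (42.0 CPM), and Erbb3 at or near 0 in all 4.

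The ligand Nrg1 and the receptor Erbb3 were at or near 0 reads, and Erbb2 was scarce. Nrg1 (chromosome 8, 31814551 to 32884029, GRCm38, minus strand) had 25 reads in C19 and 0 in the other 3 libraries. Its annotation lists 12 coding transcripts with 10 distinct 3' ends, and a count per gene does not separate the membrane-bound from the secreted forms. Erbb3 (chromosome 10, 128567523 to 128589652, minus strand), the ligand-binding receptor of Schwann cells, had 2 reads in ES19 and 0 elsewhere, 2 of 26541935 reads in all.

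Sox10, a Schwann lineage transcription factor, had 3711 to 5773 reads in the same libraries. Rows at 0 in all 4 libraries were common (10398, or 44.7% of all), and a few known glial genes were among the near-empty rows: Drp2 at 0, and Fabp7 and Gfap under 50 reads throughout. Pa2g4, which lies on the same strand 1535 bases past the 3' end of Erbb3, had 1653 to 2167 reads. By counting alone, the limit for a count of 0 is 3 reads over the 4 libraries, a mean of 0.113 CPM. Put at 3 spread-adjusted counts, it would be 666 reads, which Cntnap1 (327) and Erbb2 (287) did not reach either. The spread factor takes in biological differences, so 666 reads is no limit of detection. The part of sequencing depth in the low counts of Erbb3 and Nrg1 was not tested. Whether the authors' counting, of unknown annotation and strand setting, missed reads of Erbb3 was not tested. The other receptors of the family, Egfr and Erbb4, were at 0 in all 4 libraries.

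Erbb2 (chromosome 11, 98412470 to 98437716, plus strand), the kinase partner, had 35 reads in C11, 0 in ES11, 154 in C19 and 98 in ES19. Its levels were 22.3 and 12.3 CPM at 19 DIV and 6.04 and 0 CPM at 11 DIV, control first. Over all genes tested between days in ES, 22.5% had 0 reads in 1 of the 2 libraries. By the size rule Erbb2 was higher at 19 DIV in control (3.70-fold) and in ES (at least 24.2-fold, with 0 put at 3 reads), and the spread-adjusted intervals of both included equality and ran beyond 1000 or had no upper end. The 3' end of Erbb2 overlaps that of Mien1 on the opposite strand by 9 bases, and Mien1 had 1016, 560, 496 and 921 reads in the same order of libraries. Whether strand was used in counting is not given in the sources used here.

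Adam17 (chromosome 12, 21323509 to 21373632, minus strand) encodes a sheddase of many membrane proteins that also cuts neuregulin. It had 710 reads in C11, 506 in ES11, 1026 in C19 and 1334 in ES19. Its levels of 123, 85.4, 149 and 167 CPM spanned a 1.96-fold range, and no comparison passed the size rule. ES was at 0.697 times control at 11 DIV (0.0822 to 4.82) and at 1.12 times at 19 DIV (0.277 to 4.92). The largest of its ratios was 1.96, between 19 and 11 DIV in ES (0.344 to 18.8). Iah1 overlaps the 3' end of Adam17 by 311 bases on the other strand and had 380, 2, 690 and 34 reads. Whether reads of Iah1 were counted for Adam17 was not tested.

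Other enzymes that process neuregulin were read as well. Adam10, a related sheddase, had 1241, 1801, 2700 and 2391 reads, and the ratio of Adam17 to Adam10 within a library was 0.572, 0.281, 0.380 and 0.558. Bace1, the protease that activates neuregulin for myelination, had 427 and 634 reads at 11 DIV and 64 and 11 at 19 DIV (control first). Of the 11 neuregulin-processing genes other than Adam17, 10 were tested at 11 DIV, of which 1 was higher and 3 lower in ES11 by the size rule, beside 28.9% and 29.6% of all genes. At 19 DIV all 11 were tested, and 1 was higher and 5 lower in ES19, beside 29.4% and 31.3% of all genes. None passed the spread-adjusted rule in any of the 4 comparisons. Hbegf, an epidermal growth factor family ligand, was the ligand with the most reads: 347 in C11 and 1363 in ES11, 983 and 877 at 19 DIV.

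Adam22 and Adam23 encode surface proteins without protease activity that bind LGI proteins. Adam22 (chromosome 5, 8072352 to 8368160, minus strand) had 44 reads in C11 and 230 in ES11, 790 in C19 and 0 in ES19. It was the only one of the 10 genes with over 500 reads in one library and 0 in another. ES was 5.11-fold above control at 11 DIV and at least 305-fold below it at 19 DIV with 0 put at 3 reads. The spread-adjusted upper end of that second ratio was 1.59, so equality remained within it. Among all genes tested at 19 DIV, 2294 of 10027 (22.9%) had 0 reads in either the ES or the control library.

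Adam23 (chromosome 1, 63445891 to 63596276, plus strand) had the narrowest range of the 10 genes, 1.69-fold between its lowest and highest level. It had 295 and 510 reads at 11 DIV and 360 and 537 at 19 DIV, control first, or 50.9, 86.1, 52.2 and 67.2 CPM. The ES library was above control on both days, by 1.69-fold (0.143 to 35.8) and 1.29-fold (0.107 to 23.5). Neither ratio reached 2-fold. Lgi4, the Schwann cell ligand of both proteins, had 312, 238, 740 and 571 reads. It was lower in ES on both days, at 0.746 (0.0184 to 19.3) and 0.666 times control (0.0779 to 4.84), and higher at 19 DIV in control (1.99-fold) and in ES (1.78-fold), none of them past the size rule.

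Gldn (chromosome 9, 54286486 to 54341786, plus strand) had the highest mean level of the members. It had 416 reads in C11, 1349 in ES11, 2290 in C19 and 3956 in ES19, or 71.8, 228, 332 and 495 CPM. ES was above control on each day and 19 DIV was above 11 DIV in each treatment. The ES ratio was 3.17 at 11 DIV (spread-adjusted 0.605 to 29.9) and 1.49 at 19 DIV (0.653 to 3.60). Between days it was 4.63 in control (0.964 to 47.6) and 2.18 in ES (0.794 to 7.06). Of these, 3 passed the size rule and none the spread-adjusted rule. Gldnos, an antisense gene that overlaps it by 15085 bases, had 0 reads in all 4 libraries.

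Gldn was read against glial markers within each library. Reads of Gldn per read of Sox10 were 0.0996 in C11 and 0.364 in ES11, and 0.457 and 0.685 at 19 DIV. Reads of Gldn were 3.32%, 4.76%, 4.15% and 6.88% of the summed reads of the myelinating Schwann markers. Against Mag, a single myelin gene among them, the ratio was 1.66, 1.42, 1.54 and 1.09, lowest in ES19 where the other 2 ratios were highest. The 11 myelinating Schwann markers summed to 2165 and 4789 CPM at 11 DIV and 8003 and 7203 CPM at 19 DIV, control first, with Drp2 the only one at 0 throughout. The part of these markers in the level of Gldn was not tested. Among the other 1356 genes whose mean reached 1000 reads, the pattern over the 4 libraries closest to that of Gldn was that of Pmp2, a fatty acid binding protein of peripheral myelin, at 60.2, 186, 235 and 429 CPM (distance 0.22 in centred log2 units). Next came Fbln2 (0.41) and Sostdc1 (0.44). With 4 libraries such likeness is a description only.

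**Figure D2:**
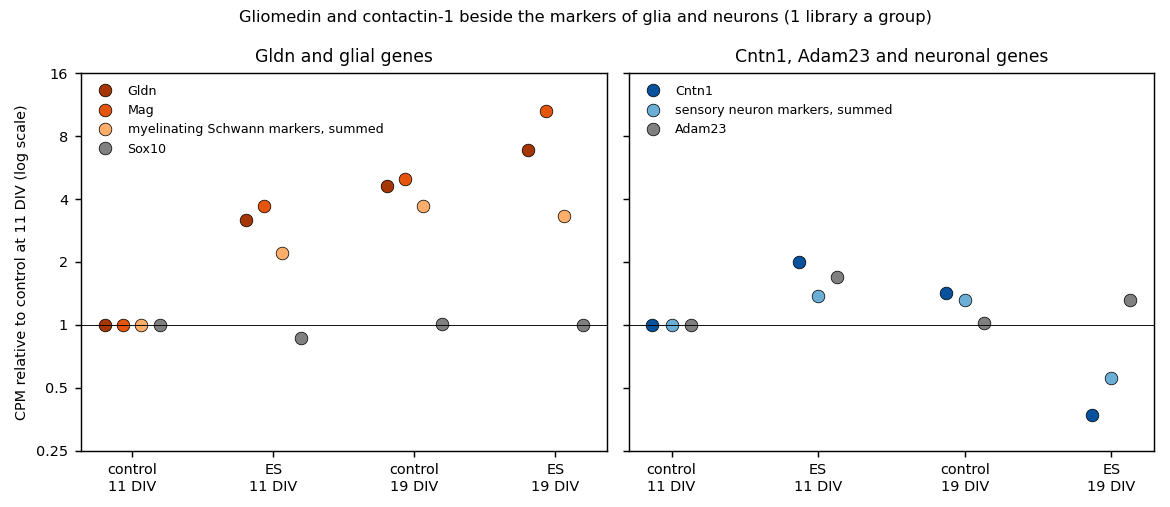
CPM of each gene or marker sum divided by its value in C11 (vertical axis, log scale) in the 4 libraries; left, Gldn (made by Schwann cells), Mag, the 11 myelinating Schwann markers summed (Mag is one of them) and Sox10; right, Cntn1, Adam23 and the 16 sensory neuron markers summed. Gldn and the myelin sum lie above 1 in the other 3 libraries while Sox10 stays near 1, and in ES19 Cntn1 and the neuron sum lie below 1 while Adam23 does not.

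Nfasc (chromosome 1, 132564690 to 132741797, minus strand) gives rise to both the axonal form at the node and the glial form at the paranode, which a count per gene adds together. It had 43 reads in C11 and 677 in ES11, and 348 and 528 at 19 DIV. C11 stood alone at 7.42 CPM, against 114, 50.5 and 66.1 CPM in the other libraries. The ratio of ES to control was 15.4 at 11 DIV (0.427 to beyond 1000) and 1.31 at 19 DIV (0.105 to 25.6). The 19 DIV library was 6.80-fold above that of 11 DIV in control (0.0762 to beyond 1000) and at 0.579 times it in ES (0.0534 to 5.19). Its partner at the node, Nrcam, had 381, 303, 636 and 676 reads, with no ratio past the size rule.

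Cntn1 (chromosome 15, 92051165 to 92341967, plus strand) had 661 reads in C11, 1359 in ES11, 1120 in C19 and 335 in ES19. In CPM these were 114, 229, 162 and 42.0, so ES was the higher library at 11 DIV and the lowest of all at 19 DIV. The ES ratio was 2.01 at 11 DIV (0.470 to 11.1), just past the 2-fold limit, and 0.258 at 19 DIV (0.0149 to 1.83). In ES the 19 DIV library was at 0.183 times that of 11 DIV (0.00922 to 1.27), and in control at 1.42 times (0.279 to 9.18).

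Neuronal markers were read beside Cntn1. The 16 sensory neuron markers summed to 3622 CPM in C11, 4999 in ES11, 4745 in C19 and 2021 in ES19. Tubb3, Prph and Stmn2, which encode a neuronal tubulin, an intermediate filament of peripheral neurons and a microtubule regulator, were lower in ES19 than in C19 by the spread-adjusted rule (Prph at 0.376, 0.175 to 0.762). Reads of Cntn1 were 3.15%, 4.59%, 3.42% and 2.08% of the marker reads in the 4 libraries, a narrower range than its CPM. Reads of Adam23, which is not one of the markers, were 1.41%, 1.72%, 1.10% and 3.33% of the same sum. The part of neuronal markers in the level of Cntn1 was not tested. The closest patterns to Cntn1 were those of Rhoq (distance 0.26), Nudt3 (0.31) and Tppp3 (0.31), and for Adam17 those of Rac1 (0.15), Pnisr (0.16) and Gpm6b (0.17).

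Cntnap1 (chromosome 11, 101170523 to 101190724, plus strand), whose product Caspr pairs with contactin-1, had 0 reads in both 11 DIV libraries. At 19 DIV it had 227 reads in control and 100 in ES, or 32.9 and 12.5 CPM. With 0 put at 3 reads, 19 DIV was at least 63.6-fold higher in control and at least 24.7-fold higher in ES. Over all genes tested between days, 21.4% in control and 22.5% in ES had 0 reads in 1 of the 2 libraries. Divided by the spread factor, 227 reads weigh like 1.02 counts, and the lower ends of the adjusted intervals were 0.0238 in control and below 1/1000 in ES. Ezh1, which ends 390 bases from it on the other strand, had 20, 20, 508 and 61 reads, so it too was highest in C19. Whether reads of Ezh1 were counted for Cntnap1 was not tested.

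The 11 DIV pair compares stimulated with control explants on the day after stimulation. Of the 6 members tested there, Gldn, Cntn1, Nfasc and Adam22 were higher in ES by the size rule, none was lower, and Adam17 and Adam23 were neither. Over all 9834 genes tested 58.6% were past that rule (28.9% higher and 29.6% lower), so passing it is common, and 4 of 6 members higher stand beside 28.9% of all genes. The members' median log2 difference was 1.33, beside -0.03 over all genes tested. Nfasc (43 reads) and Adam22 (44 reads) were under 50 in C11 and were tested only through ES11, where they were higher. Erbb2, with 35 reads in C11 and 0 in ES11, was not tested. The count and the median lean on this filter, which was the same for all genes. By the spread-adjusted rule, which 0.346% of all genes passed (0.102% higher and 0.244% lower), no member was called.

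In the 19 DIV pair, after further culture of both in myelination medium, 8 members were tested. Cntn1, Adam22 and Cntnap1, all of them axonal, were lower in ES by the size rule, none was higher, and the other 5 were neither. The rule passed 60.6% of all 10027 genes tested (29.4% higher and 31.3% lower), and 3 of 8 members lower is near that share. The median of the members was -0.34, against -0.04 over all genes. Adam22, at 0 reads in ES19, was tested only through its 790 reads in C19. No member passed the spread-adjusted rule, against 0.309% of all genes (0.160% higher and 0.150% lower). Summed CPM of the 5 axonal genes (Nrg1, Adam22, Adam23, Cntn1 and Cntnap1) were 173 in C11, 354 in ES11, 366 in C19 and 122 in ES19. Most of the fall from C19 to ES19 lay in Cntn1 (162 and 42.0 CPM) and in Adam22 (115 and 0 CPM). Among the 5 genes Adam23 stood higher in ES19 than in C19 (67.2 against 52.2 CPM). The sensory neuron markers summed to 4745 CPM in C19 and 2021 in ES19. Their part in the axonal sum was not tested. The 3 glial genes (Erbb2, Erbb3 and Gldn) summed to 77.9, 228, 355 and 508 CPM, nearly all of it Gldn, while Erbb2 was lower in ES19 than in C19 (12.3 against 22.3 CPM).

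Time was read in each treatment on its own. In control, Gldn, Nfasc, Adam22, Cntnap1 and Erbb2 were higher at 19 than at 11 DIV by the size rule, none was lower and 3 were neither, with 60.8% of all 10025 genes past the rule (30.9% higher and 29.8% lower). In ES, Gldn, Cntnap1 and Erbb2 were higher, Cntn1 and Adam22 lower and 3 neither, with 61.4% of 9884 genes past the rule (30.9% higher and 30.5% lower). The members' median log2 differences were 2.02 and 0.31, beside 0.02 and 0.03 over all genes. In control, Nfasc, Adam22, Cntnap1 and Erbb2 had under 50 reads at 11 DIV and were tested only through their higher library. In ES, Cntnap1 and Erbb2 were tested only through ES19, and Adam22 only through ES11. The counts and medians lean on this filter, which was the same for all genes. No member was called by the spread-adjusted rule, which 0.628% of all genes passed in control (0.170% higher and 0.459% lower) and 0.476% in ES (0.172% higher and 0.304% lower). These comparisons share libraries with those of ES against control and are not separate evidence. The age of the culture and the particular pool of explants cannot be told apart.

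**Figure D3:**
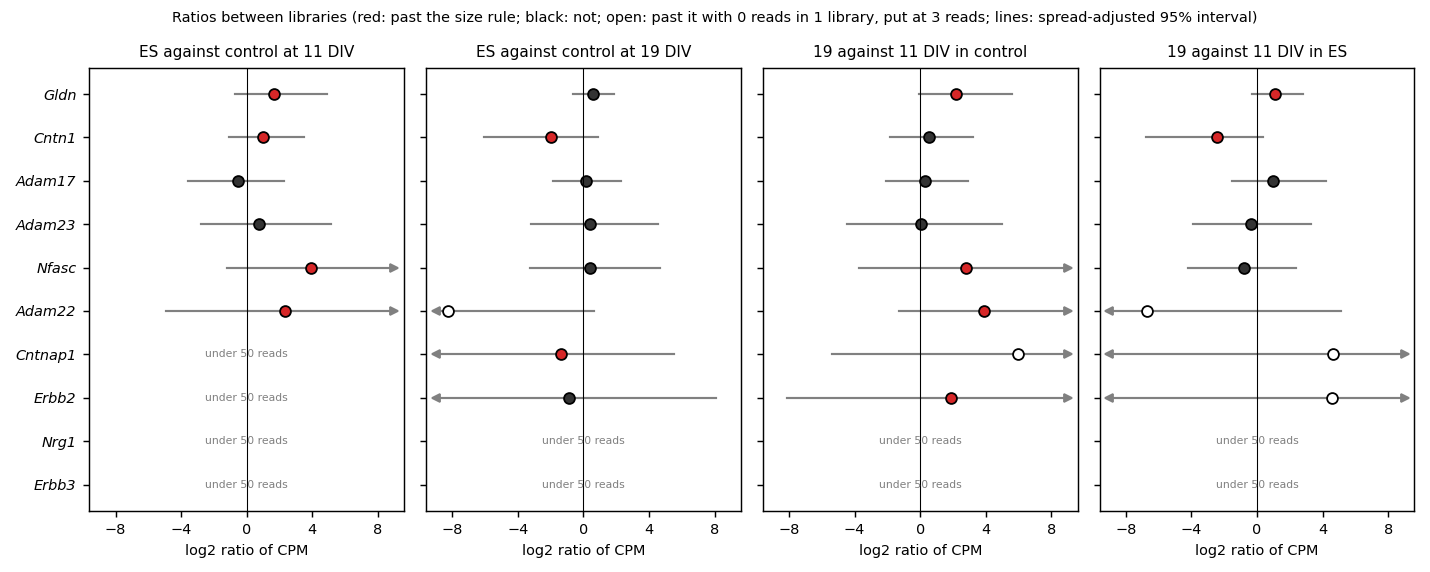
Log2 ratio of CPM between 2 libraries for the 10 genes in each of the 4 comparisons, with spread-adjusted 95% intervals as lines (arrows where they leave the axis). Red points are past the size rule, open points are past it with 0 reads in 1 library put at 3 reads, and black points are not past it; every interval crosses 0, that of Gldn between days in control most narrowly (0.964 to 47.6 as a ratio).

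A test across all 4 libraries, with stimulation and day as additive factors in edgeR's quasi-likelihood fit, had 1 residual degree of freedom. It called 0 of 10050 genes for either factor after Benjamini-Hochberg adjustment (0%), and 112 (1.11%) for stimulation and 204 (2.03%) for day at an unadjusted p under 0.05. Gldn was the only member among the latter, with a log2 change of 1.66 for day and 1.12 for stimulation, both with an edgeR adjusted p of 1.00. Cntn1 had -0.97 for day and -0.47 for stimulation, both with an edgeR adjusted p of 1.00. DESeq2 called 832 genes (8.28%) for day, among them Gldn (log2 1.67, DESeq2 adjusted p = 0.00544) and Cntnap1 (9.37, adjusted p = 0.0360), and 503 genes for stimulation, none of them a member. Calls for Gldn and Cntnap1 held in DESeq2 and not in edgeR or limma.

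The wider set of axon-glia genes, 99 others with a row, gave the same count of 0 by the spread-adjusted rule in all 4 comparisons. By the size rule, 20 of 79 tested were higher and 14 lower in ES11 (median log2 difference 0.32), and 21 of 78 were higher and 16 lower in ES19 (-0.12). Between days, 22 of 77 were higher and 11 lower in control (0.55), and 23 of 80 were higher and 22 lower in ES (0.46). Over all genes the shares higher and lower were 28.9% and 29.6% at 11 DIV, 29.4% and 31.3% at 19 DIV, 30.9% and 29.8% between days in control and 30.9% and 30.5% in ES, so the wider set was below the share of all genes in each. The 7 other genes of the paranode and juxtaparanode had medians of 0.70 at 11 DIV and -1.17 at 19 DIV for ES against control, and of 2.02 between days in control and 0.50 in ES. Of these, Cntnap2 had 0 reads in C11 and ES19 and was tested only through its higher library. In the same order, medians were 0.62, -0.25, 0.90 and 0.13 for the node and -0.27, -0.66, 0.55 and -0.01 for neuregulin processing. They were 0.23, 0.30, 0.51 and 0.54 for internode adhesion and other signals, and -0.03, -0.04, 0.02 and 0.03 over all genes tested. Of the adaptors and brakes of ErbB signalling, 2 of 18 tested were higher and 2 lower in ES11, and 10 of 18 were higher and 1 lower in ES19. Between days 1 of 17 was higher and 2 lower in control, and 7 of 19 were higher and 2 lower in ES. Kcna1 and Kcna2, the potassium channels of the juxtaparanode, were named after their values were seen. They were 4.07-fold (1.05 to 25.7) and 4.08-fold (1.07 to 25.3) higher at 19 than at 11 DIV in control, short of the 99% rule.

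Genes of the wider set named next were picked as the most abundant or as the furthest from equality in a comparison. The abundant ones had narrower intervals, and Ezr was picked for its distance from equality and not as one of the most abundant. Some intervals left out equality at 95% without passing the 99% rule. Because distance from equality was part of the choice, such intervals are a description only. The share of all genes with such an interval is not given here. Dag1, the dystroglycan of Schwann cells, had 5071 to 11242 reads and was 1.77-fold higher at 19 DIV in control (1.06 to 3.05). Ank3, the ankyrin that anchors nodal sodium channels, was 2.05-fold higher there (1.07 to 4.15), and Ezr, ezrin of the Schwann cell microvilli, 2.51-fold (1.09 to 6.45). Itgb1, an integrin chain that contacts the basal lamina, was at 0.502 times control in ES11 (0.253 to 0.955) and 2.19-fold higher at 19 than at 11 DIV in ES (1.14 to 4.49). Itga6, its partner, was 2.12-fold higher in the latter (1.09 to 4.39). Prnp, the axonal prion protein that signals to Schwann cells, was at 0.540 times control in ES19 (0.284 to 1.00) and 2.05-fold higher at 19 DIV in control (1.02 to 4.37). Ncam1, Nedd4 and Sptbn1 stayed within 2-fold in all 4 comparisons.

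**Figure D4:**
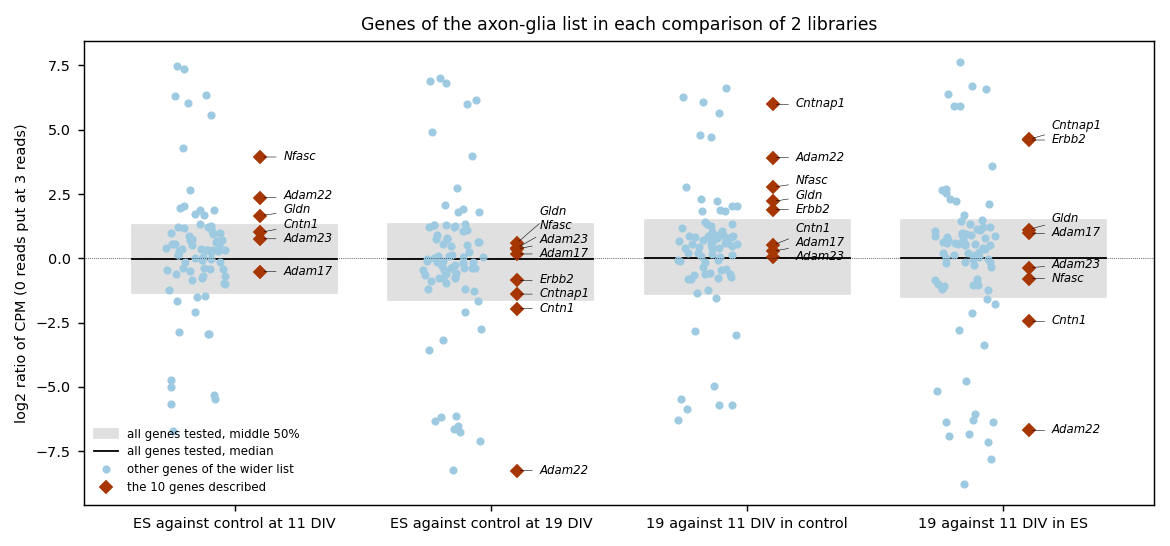
Log2 ratio of CPM (vertical axis, 0 reads put at 3 reads) in each comparison for the 10 genes (diamonds, labelled) and the other genes of the wider axon-glia list (circles), for genes with at least 50 reads in the higher library; grey boxes span the middle 50% of all genes tested and black lines their median. Members spread within and beyond the boxes, with Adam22 lowest of the members in both comparisons that involve ES at 19 DIV.

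Markers of other cells stood beside these results as follows. The 10 fibroblast markers summed to 5225 and 6964 CPM at 11 DIV and to 9418 and 13512 CPM at 19 DIV, control first, the highest sum being in ES19, with Twist2 at 0 throughout. Endothelial markers (6) summed to 25.2 to 48.3 CPM, with Pecam1, Tek and Cldn5 at 0, and macrophage markers (7) to 25.2 to 115 CPM, with Aif1 and Cx3cr1 at 0. The 13 Schwann and satellite glia markers summed to 4038, 5408, 7075 and 5931 CPM. Their part in the levels of the 10 genes was not tested.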

How the data were processed

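RNA of 4 libraries, 1 per group, was read as 3' tags from 500 ng of total RNA, per the labels' protocols. The authors deposited raw read counts per gene symbol, made with Bowtie2, bedtools and mm10 per the submitters' processing notes; for versions, strand use and duplicate handling, nothing is stated (not given in the sources used here). Counts were scaled with TMM (edgeR 4.0.16, R 4.3.3) and compared as ratios with exact Clopper-Pearson 95% intervals, plain and on counts divided by the spread factor (median squared log difference over its counting expectation). Log2 differences used a prior count of 2. The additive edgeR fit kept genes that pass filterByExpr. DESeq2 1.42.0 and limma 3.58.1 with voom were alternatives. Ratios and intervals were computed in Python 3.11.15 with scipy 1.17.1, numpy 2.4.6 and pandas 2.3.3, and plots drawn by matplotlib 3.10.9. The comparison and the fit were also run on simulated counts with a smaller spread than that of these data. Changes were put in only between days and only in genes more abundant than the members. The simulation therefore does not test the rules at the spread and levels met here. Positions came from GENCODE M21.

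The members, lists and rules were chosen with earlier results of these data known. Named were the 10 members, of the wider list the 8 most abundant and the 2 furthest from equality per comparison, the top markers, and the 3 nearest patterns of the 3 most abundant members. Nrcam, Lgi4, Adam10, Bace1, Hbegf, Kcna1, Kcna2, Mag, Cadm1 to Cadm4, L1cam, Cntn2, gene neighbours and empty rows were named after their values were seen. A few genes picked by this rule are not reported here.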

Additional observations from a re-analysis of the deposited data

Results flagged for a closer look

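For 3 members the ES library lay on one side of control at 11 DIV and on the other at 19 DIV. The difference between days was not tested, since a fit with that term leaves no residual degrees of freedom. In log2 units, Cntn1 went from 1.01 at 11 DIV to -1.95 at 19 DIV, a change of -2.95. Adam22 went from 2.30 to -8.74 (0 reads in ES at 19 DIV, so the size depends on the prior count), a change of -11.04. Adam17 went from -0.52 to 0.17, a change of 0.69. Among the 8460 genes tested on both days, 4320 (51.1%) changed side, so that 3 of 6 members tested on both days is near the share of all genes.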

How the results depend on the processing

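Every group was 1 library, so no replicate could be left out. No paired analysis was possible because the labels give no replicate numbers and each group holds 1 library. With a read minimum of 500 the members past the size rule between days went from 5 to 2 in control (2 higher). In ES they went from 5 to 2 (1 higher and 1 lower). With no read minimum Erbb2 was lower in ES at 11 DIV. Nrg1, with 25 reads in C19 and 0 in ES19 and C11, was then lower in ES at 19 DIV and higher at 19 DIV in control. No member passed the spread-adjusted rule under any of the 13 alternatives tried per comparison, 1 of them (a spread factor from squared count differences) added after seeing the data. Over all genes, a read minimum of 500 gave 1428, 1975, 1746 and 1932 past the size rule, in the order ES at 11 DIV, ES at 19 DIV, days in control and days in ES. Past the spread-adjusted rule were 34, 31, 63 and 47 genes, and 60, 73, 115 and 95 with the factor from genes of 200 to 1000 reads. The factor from genes of 1000 to 10000 reads gave 19 for ES at 11 DIV and 33 for days in control, a fold minimum of 3 gave 16 and 36, and totals without TMM 18 for ES at 11 DIV. For day, DESeq2 called 2 members where edgeR called 0. The day change of Nfasc turned to -0.43 with limma and to -0.06 without the stimulation term, and that of Adam22 to 1.30 without it; the cause was not tested. Without TMM the median over all genes moved to 0.10 for ES at 11 DIV and 0.15 for days in control.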

Other observations

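The 3 genes given here were picked after their values were seen, for low reads of Cadm3 and Cntn2 in ES19, and most genes of the list with Cadm3 and Cadm4 did not share that pattern. Cadm3, an adhesion molecule of axons, had 397 reads in C11, 962 in ES11, 778 in C19 and 0 in ES19. Cadm4, its partner on Schwann cells, had 695 and 1482 reads at 11 DIV and 1455 and 2902 at 19 DIV, control first. Cntn2, an adhesion molecule of the juxtaparanode, had 202 and 486 reads at 11 DIV, 496 in C19 and 8 in ES19. None of their ratios passed the spread-adjusted rule. In the list that holds Cadm3 and Cadm4 (internode adhesion and other axon-glia signals), 4 genes were higher, 2 lower and 14 neither in ES19 against C19 by the size rule, with a median log2 difference of 0.30. With 0 put at 3 reads, the log2 difference there was 4.93 for Cadm2, -0.11 for Cadm1 and -0.29 for L1cam.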
